A study of Sus scrofa with 6 samples.

Results

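The miR-30 family was measured with 10 probes on a pig miRNA microarray of 322 probes. The members were chosen by name, as all probes for miR-30a, miR-30b, miR-30c, miR-30d and miR-30e, whichever strand of the hairpin they detect. Earlier results of these data were known when the choice was made. Of the 10, 5 detect the strand from the 5′ side of the hairpin, counting miR-30d, which is named without an arm, and 5 detect the strand from the 3′ side. Total RNA of the left atrium (LA) was hybridized to 1 Cy3-labelled array per animal, with 3 sham and 3 paced Large White pigs. Paced animals received bursts of rapid right atrial pacing through a catheter, after the beta blocker esmolol, which gave brief episodes of atrial fibrillation (AF) that ended by themselves. Sham animals were operated on but not burst-paced, and LA tissue was taken about a day after the pacing had stopped. The sample labels describe neonatal piglets, whereas the study's text gives an age of 3 months, and neither names a strain with a modified gene. As a model this is AF induced in healthy hearts, seen at 1 time point in whole atrial tissue, so that fewer cells of a type and less miRNA per cell cannot be told apart.

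A miRNA hairpin is cut into a duplex of a 5p and a 3p strand. One strand, the guide, is loaded into Argonaute and directs it to messenger RNAs, largely through the seed at its bases 2 to 8, while the passenger strand is usually degraded. In the miR-30 family the 5p strand is the usual guide. The family is abundant in cardiac muscle, where it is known to repress connective tissue growth factor, a profibrotic factor, and regulators of mitochondrial fission and autophagy. The question here was whether the guides and the passengers differed between paced and sham atria, and whether the arms of a hairpin differed to an unequal extent.

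The target sequences listed for the probes show why the members fall into groups, and they are printed 5′ to 3′ with the seed in capitals. All 5 guides carry the seed GUAAACA, which no other of the 322 targets has.
miR-30a-5p: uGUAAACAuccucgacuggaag
miR-30d: uGUAAACAuccccgacuggaagcu
miR-30e-5p: uGUAAACAuccuugacuggaagcu
miR-30b-5p: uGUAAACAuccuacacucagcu
miR-30c-5p: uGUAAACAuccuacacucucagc

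Counted from 1 at the 5′ end, miR-30a-5p and miR-30d differ over their shared 22 positions by the single substitution U12C, and miR-30a-5p and miR-30e-5p by C13U. The guides miR-30d and miR-30e-5p differ by C12U and C13U. The other pair, miR-30b-5p and miR-30c-5p, is identical up to base 18 and differs at 4 of the 22 shared positions. All these counts compare position by position without gaps. A shifted 3′ end, as in this last pair, is therefore counted as several differences. Guides of different subgroups differ at 5 to 8 positions. By the same ungapped count, targets of probes outside the family differ from each of the 10 at 8 or more positions. On that count, signal shared between probes is a question within the family first. How far a probe takes up signal of a relative was not tested.

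The passengers fall into 2 sequence classes with seeds unlike that of the guides.
miR-30a-3p: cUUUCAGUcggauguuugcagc
miR-30e-3p: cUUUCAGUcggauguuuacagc
miR-30b-3p: cUGGGAGGuggauguuuacuu
miR-30c-3p: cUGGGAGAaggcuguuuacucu
miR-30c-1-3p: cUGGGAGAggguuguuuacu

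miR-30a-3p and miR-30e-3p have the seed UUUCAGU and differ only by G18A. miR-30c-3p and miR-30c-1-3p share the seed UGGGAGA and come from the 3′ sides of the separate miR-30c hairpins, while miR-30b-3p carries UGGGAGG. None of these 3 seeds occurs in a target outside the family. The RefSeq table of assembly Sscrofa11.1 places the miR-30b and miR-30d genes within 10 kb of each other, and likewise those of miR-30e and miR-30c-1, which lie inside NFYC, a gene for a subunit of the transcription factor NF-Y. No miRNA gene outside the family lies within 10 kb of a miR-30 gene in that table.

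The scanner values are spot intensities with the background included, and each probe has 9 repeat spots. The background was read from the 786 empty spots of each array, whose median was 64.7 to 214 units in sham and 242.5 to 399 units in paced animals, so that the empty spots were brighter on each paced array than on any sham array. Well above background here means that, on the array in question, the median repeat spot of a probe was over 3 SD of the empty spots higher than their median, which held for 104 of the 322 probes on all 6 arrays and for 143 on none. Of the striated muscle miRNAs used to check the tissue, miR-1, miR-133a-3p, miR-133a-5p, miR-133b and miR-499-5p met this on all 6 arrays and miR-208b on 5, while the liver miRNA miR-122 met it on none. Among probes for endothelium, smooth muscle, red cells, leukocytes and fibroblasts none passed an adjusted p of 0.05 between paced and sham animals. At an unadjusted p of 0.05, 3 of these 14 did, namely miR-126-5p (log2 difference 0.37, not well above background on any array), miR-143-3p (-0.32) and miR-486 (-0.70). Over all 322 probes 34 did (10.6%), 23 of them lower (7.14%) and 11 higher (3.42%) in paced animals.

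The family divided by arm in its signal over the empty spots. In all 6 animals the 5 guides were well above background, with a signal of 5.37 to 138 times the empty-spot median of the same array. Among the passengers, miR-30e-3p alone was well above background in all 6 animals, at 1.40 to 6.65 times the empty spots. miR-30a-3p was so in 2 sham and 2 paced animals, at 0.952 to 2.61 times, and miR-30b-3p in 1 sham animal, at 0.876 to 1.39 times. The probes of miR-30c-3p and miR-30c-1-3p rose above background in no animal, at 0.827 to 1.24 and 0.849 to 1.32 times the empty spots. Probes differ in how they hybridize, so these ratios rank each probe against its own background and not 1 miRNA against another.

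**Figure D1:**
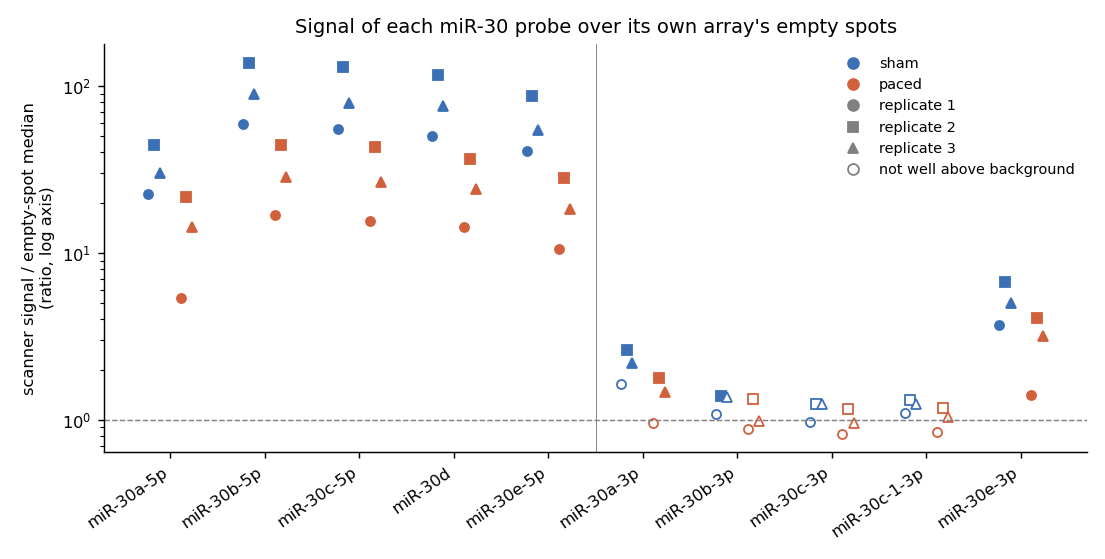
Scanner signal of each miR-30 probe divided by the empty-spot median of the same array (ratio, log axis), for 3 sham (blue) and 3 paced (orange) animals, with the symbol giving the replicate and an open symbol a probe not well above background. The 5 guides lie at 5.37 to 138 times the empty spots, and of the 5 passengers at right miR-30e-3p alone is filled in all 6 animals.

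For every guide the ratio was lower in each paced animal than in each sham animal. The empty spots themselves were brighter on each paced array, which lowers such a ratio, so the arrays were compared after background correction and quantile normalization. On the resulting log2 scale, a difference of 1 is a 2-fold change for a bright probe and is compressed for a dim one. The groups were compared by limma in 1 fit to the 322 probes with Benjamini-Hochberg adjustment, and differences are given as paced minus sham. After adjustment, 0 of the 10 miR-30 probes passed 0.05, and the count over all 322 probes was also 0 (0%). At an unadjusted p of 0.05, the threshold of the study's methods, 2 of the 10 passed, both lower in paced animals, beside 34 of 322 (10.6%) in either direction, 23 (7.14%) lower and 11 (3.42%) higher. The methods' t-test gave 39 of 322 at that threshold and 0 after adjustment.

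The guides showed no difference past the threshold in any member. Their differences ran from -0.16 to 0.02, with 4 of 5 below 0 and a median of -0.06, beside a median of 0.00 over all 322 probes, of which 157 lay below 0. Their adjusted p values ran from 0.586 to 0.968. The 95% intervals of the 5 differences lay between -0.43 and 0.47 log2 units.

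miR-30b-5p had log2 values of 13.17, 13.19 and 13.25 in the sham animals, named here and below in the order of replicates 1, 2 and 3, and of 13.24, 13.28 and 12.99 in the paced animals. The paced animals lay on both sides of the sham animals, with replicate 3 the lowest of all 6. Paced minus sham was -0.04 (SE 0.09, limma, adjusted p = 0.907), the sham mean being 13.21 ± 0.04 (SD, n = 3) and the paced mean 13.17 ± 0.16 (SD, n = 3).

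miR-30d, whose gene neighbours that of miR-30b, had log2 values of 12.87, 12.89 and 12.99 in the sham animals and of 12.92, 12.94 and 12.70 in the paced animals. Again paced replicate 3 was the lowest and the groups overlapped. The difference was -0.06 (SE 0.09, adjusted p = 0.838). Without paced replicate 3 it was 0.02, and that of miR-30b-5p was 0.06, so the sign of both rested on that animal.

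miR-30e-5p had log2 values of 12.60, 12.52 and 12.62 in the sham animals and of 12.38, 12.60 and 12.27 in the paced animals. Paced replicates 1 and 3 lay below all sham animals and paced replicate 2 among them. Its difference of -0.16 (SE 0.10, 95% interval -0.40 to 0.07, adjusted p = 0.586) was the lowest among the guides. Leaving out 1 animal at a time kept it between -0.26 and -0.09.

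miR-30a-5p varied most. Its log2 values were 11.69, 11.68 and 11.85 in the sham animals and 11.33, 12.09 and 11.87 in the paced animals, so that the lowest and the highest of all 6 were both paced. The SD was 0.10 in sham and 0.39 in paced animals (n = 3 each), and the range over the 6 arrays of 0.76 was as wide as or wider than that of 90.4% of the 104 probes above background throughout. The mean difference of 0.02 (SE 0.19, adjusted p = 0.968) became 0.25 without paced replicate 1 and -0.14 without paced replicate 2.

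miR-30c-5p had log2 values of 13.05, 13.10 and 12.95 in the sham animals and of 13.05, 12.93 and 12.90 in the paced animals, with a difference of -0.07 (SE 0.08, adjusted p = 0.750). This probe had 1 deviating repeat spot on each of 2 arrays. On the array of paced replicate 2 its lowest spot read 1743 units where the next lowest read 9138 and the median was 10492, and on that of sham replicate 3 the lowest read 3672, the next 8761 and the median 9265. No other miR-30 probe had a spot under 0.5 times its median on any array. With the median of the repeat spots in place of the mean, an alternative chosen after the data were seen, paced replicate 2 moved to 13.23 and became the highest of the 6, sham replicate 3 moved to 13.03, and the difference turned to 0.01 (SE 0.09, adjusted p = 0.974).

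**Figure D2:**
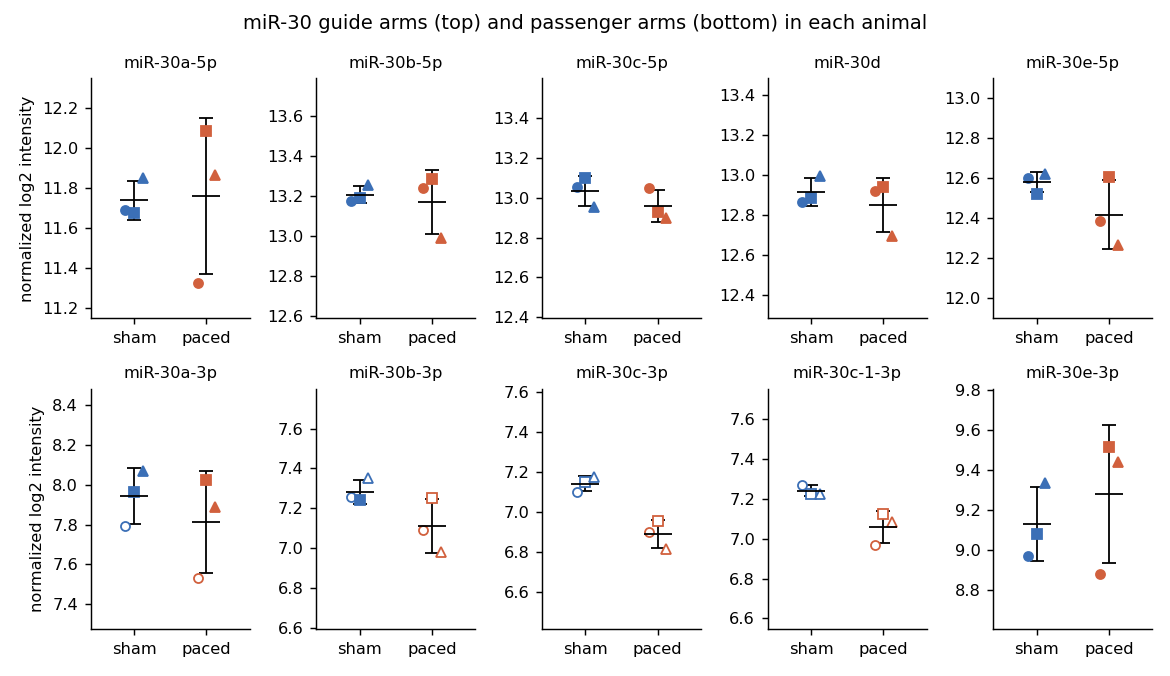
Normalized log2 intensity of each miR-30 probe by animal, with guides in the top row and passengers in the bottom row, the mean as a horizontal line and the SD (n = 3) as bars, symbols as replicate 1 (circle), 2 (square) and 3 (triangle), and open symbols for probes not well above background. Each panel spans 1.2 log2 units, and the groups overlap for all probes but miR-30c-3p and miR-30c-1-3p, which lie at background.

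Among the passengers the differences ran from -0.25 to 0.15, with 4 of 5 below 0 and a median of -0.17. For miR-30e-3p, the 1 passenger measured in every animal, log2 values were 8.97, 9.08 and 9.34 in the sham animals and 8.88, 9.52 and 9.44 in the paced animals. Paced replicates 2 and 3 lay above all sham animals and paced replicate 1 below them, and the difference was 0.15 (SE 0.19, 95% interval -0.29 to 0.59, limma, adjusted p = 0.796). Without paced replicate 1 it was 0.36 and without paced replicate 2 it was 0.03.

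miR-30a-3p, with the same seed, had log2 values of 7.79, 7.96 and 8.07 in the sham animals and of 7.53, 8.02 and 7.89 in the paced animals. The groups overlapped, with paced replicate 1, in which the probe was not above background, again the lowest. The difference was -0.13 (SE 0.14, adjusted p = 0.760), and without paced replicate 1 it was 0.01.

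The probes at the threshold of the methods were the dimmest of the family. miR-30c-3p had log2 values of 7.10, 7.15 and 7.17 in the sham animals and of 6.90, 6.95 and 6.81 in the paced animals, so that the highest paced value was under the lowest sham value. This made a difference of -0.25 (SE 0.07, limma, adjusted p = 0.222). miR-30c-1-3p had log2 values of 7.27, 7.22 and 7.22 in the sham animals and of 6.97, 7.12 and 7.08 in the paced animals, also without overlap, and a difference of -0.18 (SE 0.07, adjusted p = 0.407). These were the 2 of 10 members whose groups did not overlap, beside 56 of all 322 probes (17.4%), 33 of them lower in paced animals (10.2%). Among the 143 probes above background in no animal, to which both belong, the groups did not overlap for 30 (21%), with 11 of these lower (7.69%) and 19 higher (13.3%) in paced animals. At the unadjusted threshold 12 of the 143 passed (8.39%), 5 lower (3.5%) and 7 higher (4.9%).

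As neither miR-30c-3p nor miR-30c-1-3p was above background in either group, no fold is given, and the brighter empty spots of all paced arrays stand beside these values with their part in the difference not tested. The direction depended on the scaling between arrays. Without normalization the differences were 0.20 and 0.26, and with scaling of each array to its detected probes' median 0.36 and 0.42, where the median over all probes moved to 0.27 and 0.44. Both probes thus stayed below the median probe under these settings. With plain subtraction of the background they were 0.02 and 0.04, beside a median of 0.02 over all probes. miR-30b-3p had log2 values of 7.26, 7.24 and 7.35 in the sham animals and of 7.09, 7.25 and 6.98 in the paced animals, with overlap and a difference of -0.17 (SE 0.09, adjusted p = 0.492), and its sign turned without normalization and with scaling.

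The authors' processed intensities of miR-30c-3p were 23.1, 28.4 and 39.1 in the sham animals and 10.4, 18.4 and 6.79 in the paced animals. All 6 values lie below the median processed value of any array, which ran from 48.7 to 59.2, and the groups did not overlap. The sham mean was 30.2 ± 8.13 (SD, n = 3) and the paced mean 11.9 ± 5.96 (SD, n = 3). In limma on the log2 of these values miR-30c-3p was the 1 member at the unadjusted threshold (adjusted p = 0.348), beside 31 of all 322 probes. Since miR-30c-3p was well above background in no animal, the size of the difference is not given on this scale.

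**Figure D3:**
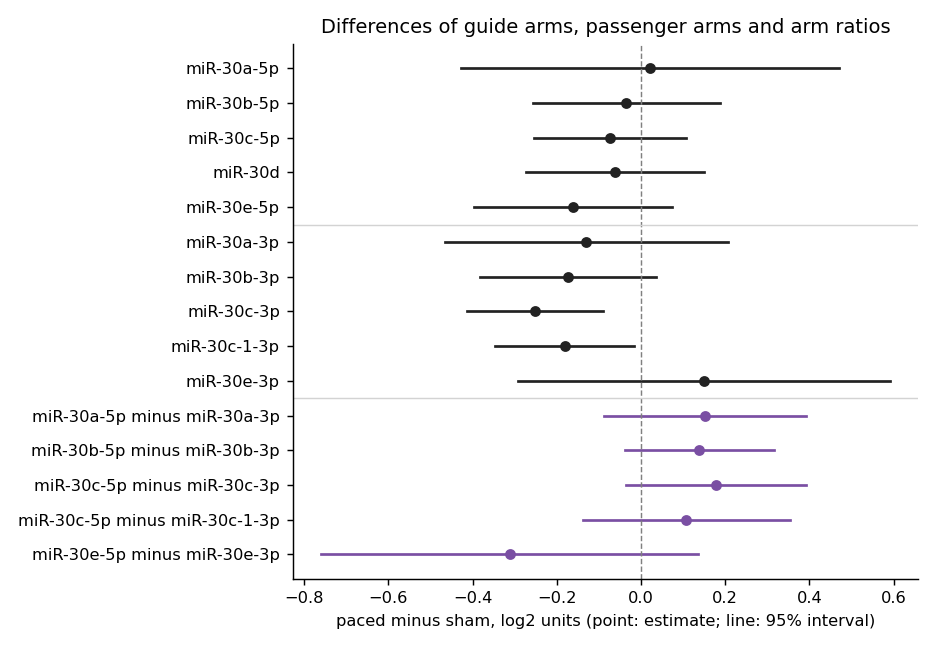
Difference between paced and sham animals in log2 units for the 5 guides, the 5 passengers (black) and the 5 arm ratios (purple), as the limma estimate (point) with its 95% interval (line). The intervals exclude 0 for miR-30c-3p and miR-30c-1-3p before adjustment and for no guide or arm ratio.

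To compare the arms of a hairpin without setting the level of 1 probe against another, the log2 value of the 3p probe was subtracted from that of the 5p probe within each array, and the change of this arm ratio between paced and sham animals was tested. The array has 75 such pairs, 5 of them in the miR-30 family, where the pairs of miR-30c-3p and miR-30c-1-3p share the probe of miR-30c-5p. After adjustment over the 75 pairs, 0 of the 5 and 0 of the 75 (0%) passed 0.05. At an unadjusted p of 0.05 the counts were 0 of 5 and 8 of 75 (10.7%), with 5 of the 75 higher (6.67%) and 3 lower (4%) in paced animals, and with the methods' t-test 1 of 5 and 10 of 75.

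Of the family's hairpins, miR-30e alone had both arms above background in all 6 animals. Its arm ratio was 3.63, 3.44 and 3.28 in the sham animals and 3.50, 3.09 and 2.83 in the paced animals, so that paced replicates 2 and 3 lay below all sham animals. The change was -0.31 (SE 0.19, 95% interval -0.76 to 0.14, limma, adjusted p = 0.528). Its sign was negative in all 17 alternatives, from -0.50 without paced replicate 1 to -0.15 without paced replicate 3 among those that left out 1 animal.

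For miR-30a, with both arms above background in 4 animals, the arm ratio was 3.90, 3.71 and 3.78 in the sham animals and 3.80, 4.07 and 3.98 in the paced animals. The change of 0.15 (SE 0.10, 95% interval -0.09 to 0.39, adjusted p = 0.582) had the opposite sign to that of miR-30e, and the difference between these changes was not tested. It turned to -0.31 when the arrays were not normalized or only scaled. The ratios of miR-30b-5p to miR-30b-3p and of miR-30c-5p to miR-30c-3p were higher in each paced than in each sham animal, by 0.14 (SE 0.07) and 0.18 (SE 0.09), beside 16 of 75 pairs without overlap (21.3%) and with 9 higher (12%) and 7 lower (9.33%) in paced animals. In these pairs the guides differed by -0.04 and -0.07 and the passengers by -0.17 and -0.25, and miR-30b-3p was above background in 1 animal and miR-30c-3p in none. Both ratio changes turned negative without normalization or with scaling, at -0.66 and -0.63, and with plain subtraction, at -0.0014 and -0.098, and stayed positive with cyclic loess, at 0.060 and 0.098.

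The members also differed in how they varied from animal to animal. Each probe was centred on its mean over the 6 arrays, and the likeness of 2 probes was measured by the root mean square (RMS) difference of these centred log2 values, in which a shift common to an array cancels. Among the 45 pairs of members, miR-30b-5p and miR-30d were the closest, at 0.025, although their targets differ at 8 of 22 positions. They also ranked closest with the median of the repeat spots (0.016), with the background from the 15 nearest empty spots (0.026) and on the authors' processed values (0.034). The next closest pair, at 0.032, was miR-30b-3p, a passenger near background, with miR-30e-5p, a guide of another hairpin. On the processed values that pair lay at 0.41, so a small distance can depend on the processing. With the median of the repeat spots, miR-30c-5p lay at 0.055 from miR-30b-5p and 0.062 from miR-30d, against 0.10 from either with the mean.

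miR-30a-5p followed another profile. It differs from miR-30d by a single base but lay at 0.25 from it, and at 0.23 from miR-30e-5p. Its closest member was miR-30e-3p, at 0.099, then its own passenger miR-30a-3p at 0.12. In these 3 probes paced replicate 1 was the lowest animal, at -0.42, -0.32 and -0.35 from the mean for miR-30a-5p, miR-30e-3p and miR-30a-3p, and paced replicate 2 was above the mean by 0.34, 0.31 and 0.14. In miR-30b-5p and miR-30d these animals lay at 0.05 and 0.04 and at 0.10 and 0.06, and paced replicate 3 was the low animal, at -0.20 and -0.19. The arms of miR-30e were among the less alike pairs, at 0.27. These distances describe 6 arrays, and paced replicate 1 had the highest empty-spot median, 399 units, and the fewest probes well above background, 104, with its part in these profiles not tested.

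**Figure D4:**
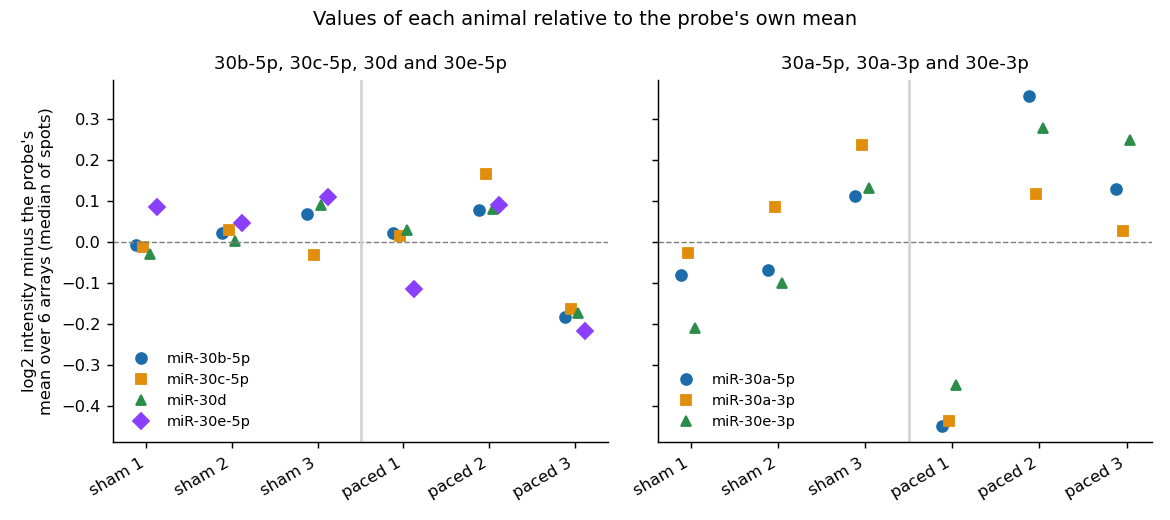
Log2 intensity of each animal minus the probe's mean over the 6 arrays, with the median of the repeat spots, for 4 guides (left) and for miR-30a-5p, miR-30a-3p and miR-30e-3p (right). On the left paced replicate 3 is the lowest animal for all 4 probes, and on the right paced replicate 1 is the lowest for all 3.

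Outside the family, the 3 probes closest to the mean profile of the 5 guides, among 98 above background throughout, were miR-148b-3p (RMS difference 0.039), miR-133a-3p (0.073) and miR-149 (0.081). The median over the 98 was 0.16. Of the guides, miR-30d lay at 0.062, miR-30b-5p at 0.063, miR-30e-5p at 0.064 and miR-30c-5p at 0.11. miR-30a-5p lay at 0.20, farther than the median probe outside the family. Each guide is itself part of the mean profile, which draws it closer. miR-133a-3p, a muscle miRNA, hardly varied between animals after quantile normalization (SD 0.01 in both groups), so that its closeness is that of a flat profile to the guides, whose mean lay between -0.12 and 0.11.

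miRNAs known, like miR-30, for targets in the extracellular matrix or in fibrosis are miR-133a-3p, miR-133b, miR-29a, miR-29b, miR-29c, miR-21 and miR-24-3p. Of these 7, 0 passed 0.05 before or after adjustment in limma, beside 34 of 322 (10.6%) before and 0 after. Above 0 lay 5 and below it 2, and their median difference was 0.04, beside 0.00 over all probes. The differences of miR-133a-3p and miR-133b were equal and opposite, 0.004 and -0.004. Both probes hardly varied after quantile normalization (SD 0.01 in both groups), so they add little to these counts. The highest was miR-29b, which represses collagen genes, with a sham mean of 8.17 ± 0.10 (SD, n = 3) and a paced mean of 8.59 ± 0.86 (SD, n = 3), a difference of 0.43 (SE 0.39, adjusted p = 0.739). The lowest was its relative miR-29c, at -0.05 (SE 0.30, adjusted p = 0.964). In both, as in every miR-30 probe, the SD was larger in paced than in sham animals. Within the family this ranged from miR-30c-5p, at 0.08 against 0.07, to miR-30a-5p, at 0.39 against 0.10. With the median of the repeat spots miR-30c-3p went the other way, at 0.029 in paced against 0.051 in sham animals. A larger SD in paced animals was not particular to the family, as miR-1 had 0.70 against 0.14, whereas let-7a had 0.12 against 0.16. The share over all 322 probes was not counted.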

How the data were processed

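LA miRNA of 3 sham and 3 paced pigs was measured on LC Sciences pig arrays, and groups were taken from the sample titles. The authors deposited scanner intensity values, the median of each spot without background correction or normalization (GenePix scanner, Array-Pro image analysis, versions not given in the sources used here). They also deposited processed intensity values on a linear scale, by a method not given there and used as an alternative. All 3968 spots were corrected with limma's normexp (limma 3.58.1, R 4.3.3, offset 50), the 2898 pig miRNA spots were quantile-normalized, transformed to log2 and averaged over 9 repeats, and groups were fitted with lmFit and eBayes. The limma fit was tested on simulated data, whereas the background correction and the normalization were not tested in this way. Members and lists were chosen with earlier results of these data known. Named miRNAs are all miR-30 probes, the 3 closest to their guide profile and the extremes of the matrix list, whereas other list members are named as tissue checks. No table of hairpin sequences was used, so arms were read from probe names. The number of arrays limits precision, and an exact permutation test of 3 against 3 cannot go below p = 0.1. Plots were made in matplotlib 3.10.9 (Python 3.11.15).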

Additional observations from a re-analysis of the deposited data

How the results depend on the processing

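At the unadjusted threshold 2 miR-30 probes were counted, against 1 on the authors' processed values (limma on log2, and the methods' t-test, added after the data were seen), with cyclic loess or with the replicate block, and 0 with a filter on dim probes, without normalization, with the 15 nearest empty spots or with plain subtraction (floor of 32). The filter kept 6 miR-30 probes and removed both counted ones, so its 0 says nothing about them. Over all probes the counts in the same order were 31, 29, 31 and 33, then 5 of 126 kept by the filter, 15, 36 and 32. Leaving out 1 animal gave 1 to 4 miR-30 probes, the highest without paced replicate 2. Over all 322 probes it gave 19 to 67, with 39 without paced replicate 2 and 67 without paced replicate 1. Below the adjusted threshold the count was 2 with scaling to the median of detected probes (miR-30b-3p at 0.43 and miR-30c-1-3p at 0.42, higher in paced animals but below the median probe at 0.44) and otherwise 0. Over all 322 probes 171 then passed the adjusted threshold, against 0. At the unadjusted threshold 181 did, against 34, and 15 did without normalization. After adjustment 9 of 322 passed without paced replicate 1 and 1 without paced replicate 2. The median of the guides, -0.06, moved to -0.43 without normalization and -0.27 with scaling. That of the passengers, -0.17, moved to 0.20 and 0.36 under these, to -0.55 on the processed values, -0.083 with the nearest empty spots and 0.02 with subtraction. With the filter it was 0.15, the value of miR-30e-3p, the only passenger kept. Without 1 animal they lay between -0.11 and -0.02 and between -0.24 and -0.14. The miR-30 arm ratios at the unadjusted threshold, 0, became 1 on the processed values, with the methods' t-test or with the replicate block, 4 without normalization or with scaling, and 0 to 2 without 1 animal, the highest without paced replicate 1. Over all 75 pairs the count, 8, became 9, 10 and 10 under the first 3 of these, and 26 without normalization or with scaling. Without 1 animal it ran from 1 to 21, also highest without paced replicate 1.

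These signs turned. Without normalization and with scaling alike the arm ratios were -0.31 for miR-30a, -0.66 for miR-30b, -0.63 for miR-30c-3p and -0.69 for miR-30c-1-3p, and with subtraction the last 3 were -0.0014, -0.098 and -0.12. Without normalization and with scaling, miR-30a-3p was at 0.16 and 0.33, miR-30b-3p at 0.27 and 0.43, miR-30c-3p at 0.20 and 0.36, and miR-30c-1-3p at 0.26 and 0.42. With subtraction miR-30c-3p was at 0.020 and miR-30c-1-3p at 0.038, and with cyclic loess miR-30a-3p at 0.019. miR-30a-5p was at -0.15 without normalization, and miR-30c-5p at 0.011 with the median of the repeat spots. Without 1 animal, miR-30a-3p reached 0.011, miR-30a-5p lay between -0.14 and 0.25, miR-30b-5p between -0.091 and 0.056, and miR-30d reached 0.016. The cause was not tested. Nothing says that replicate numbers pair the animals, and same-numbered animals deviated with r = 0.17, -0.014 and 0.21 over the 104 detected probes (probes are not replicates). For animals with different numbers r ran from -0.24 to 0.091, so that 0.17 and 0.21 were the highest values. Whether the animals were paired was not tested. The replicate block gave 33 probes in all at the unadjusted threshold and 0 after adjustment.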
